A study of Saccharomyces cerevisiae with 24 samples.

Results

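A pool of deletion strains transformed with pYX223-MDM33, or with pYX223 as the empty vector, was grown for 4 days on plates with 2% galactose, and the comparison between the plasmids on this sugar is described here. Both plasmids were put into the same kind of pool, the knockout collection YSC1054 of Open Biosystems in the haploid background BY4742, in which every strain lacks 1 gene that is not essential. Transformants of both plasmids were first selected on glucose plates and then moved to galactose, so every strain had passed a round of colony growth before induction. Of the 24 dye channels of the series, 12 belong to this comparison, 6 for each plasmid, and they come from 2 independent experiments a side. In experiment 1 both plasmids were labelled with Cy3, and in experiment 2 each DNA was labelled with Cy3 and with Cy5. Samples with glucose and the same plasmids, grown for 2 days, make up the other 12 channels. They enter the estimate of the spread and are quoted only beside strains described below. The labels do not say whether the 2 experiments started from separate pools, so the p-values measure the spread between these samples.

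Mdm33 is a protein of the mitochondrial inner membrane with coiled-coil domains, and large amounts of it stop yeast cells from growing and alter the inner membrane. In pYX223-MDM33 the gene stands behind the GAL1/10 promoter. This promoter is silent on glucose and is switched on by the activator Gal4 on galactose, once the sensor Gal3 binds the sugar and takes the inhibitor Gal80 off Gal4. Each deletion strain carries a pair of short barcodes beside the marker, the uptag and the downtag, which are amplified from genomic DNA and read on an array. A strain that keeps dividing while its neighbours stop takes a growing share of the barcodes. The question put to these plates was which deletions let cells grow when MDM33 is overexpressed.

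The spot intensity was scaled by the authors to the same total in each channel, so strain values are relative, and fewer cells of a strain cannot be told apart from more cells of the others. Dyes were averaged first and the barcodes of a strain second. Of 5526 strains with a barcode on the array, 4109 had a mean signal above the background of the barcodes that were not labelled, and these were tested. That background, the detection limit, was between 786 and 3339 units with the MDM33 plasmid and between 185 and 601 units with the empty vector. The experiments agreed less with the MDM33 plasmid. The median difference between its 2 experiments was 1.73 on the log2 scale, against 0.65 to 0.76 in the other 3 groups, and the rank correlation of strain values across strains was 0.451 against 0.735 to 0.786. In experiment 2 the dyes gave a rank correlation across probes of 0.598 for uptags and 0.663 for downtags with the MDM33 plasmid, against 0.966 for both with the empty vector.

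With the MDM33 plasmid the pool was taken over by few strains. In experiment 1, 50% of the signal of all strains came from 121 strains, against 695 with the empty vector. The numbers for experiment 2 were 207 and 992. The 10 strains with the highest values held 11.7% and 5.33% of the signal in experiments 1 and 2, against 1.92% and 0.922% with the empty vector. Fewer strains could be detected at all. Of 5526 strains, 3608 were detected in both experiments with the empty vector and 2185 with the MDM33 plasmid. Of the 3608, both experiments with the MDM33 plasmid detected 2135, a single one 1033, and neither 440. The limit was higher with the MDM33 plasmid, and its part in these losses was not tested.

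**Figure D1:**
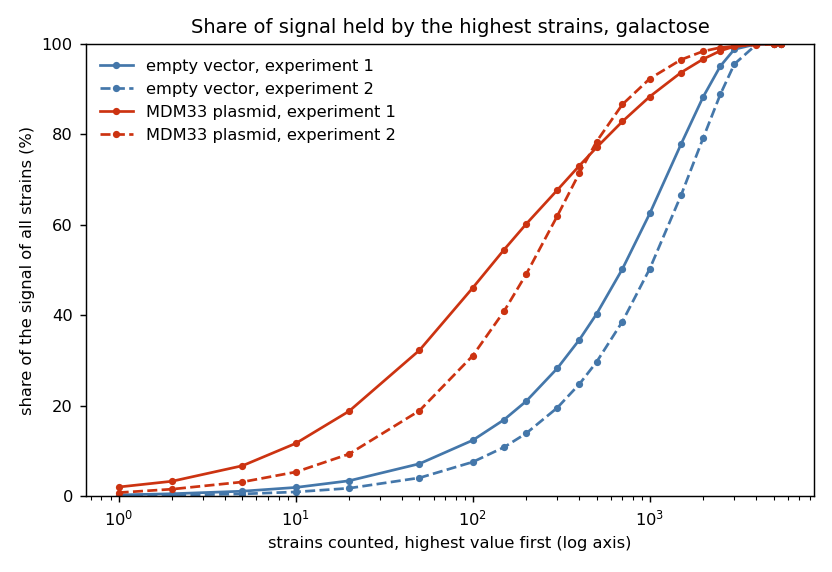
Share of the signal of all 5526 strains on galactose (vertical axis, %) against the number of strains counted from the highest value down (horizontal axis, log scale). Solid lines are experiment 1 and dashed lines experiment 2; both curves of the MDM33 plasmid rise earlier, and its 100 highest strains hold 46.1% and 31.1% of the signal, against 12.4% and 7.55% with the empty vector.

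On the deposited scale most strains had lower values when they carried the MDM33 plasmid. This direction turned for the median strain after scaling to the median of the labelled barcodes (1.68). The median of the labelled original probes was 69.9 to 2336 units in the galactose channels of the MDM33 plasmid, below each channel's limit. With the empty vector it was 2666 to 12982 units, above the limits. Without overlap between the plasmids, 2058 of 4109 strains (50.1%) were lower and 233 (5.67%) higher. The median log2 difference over the 4109 tested strains was -1.57, with -1.07 in experiment 1 and -2.30 in experiment 2. Values are on the scale of log2 of the strain value plus 500 units, which understates the change of low strains. Both experiments placed 2264 strains lower and 363 higher, and 1460 strains had opposite signs. The differences of the 2 experiments had a Pearson correlation across the 4109 strains of 0.167, and those of uptags and downtags had one of 0.485 across the 4030 strains with both barcodes. Strains share their libraries, so these correlations are descriptions.

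By limma, fitted to the 8 values of each strain in all 4 groups, 8 strains were higher with the MDM33 plasmid (0.195% of 4109) and 365 were lower (8.88%) at an adjusted p under 0.05. At an unadjusted p under 0.05 there were 57 higher (1.39%) and 1349 lower (32.8%). The adjusted p of the 8 higher and 365 lower strains lay between 0.0388 and 0.0499, so all of them stood close to the threshold. The fit pools the spread over groups of unequal spread. With the 4 galactose values alone no strain passed (smallest adjusted p = 0.190 by limma), while 28 strains higher (0.681%) and 875 lower (21.3%) had an unadjusted p under 0.05, among them all 8 and all 365. The smallest p that 2 against 2 experiments allow by exact permutation is 0.333. With the experiment number as a block, 8 strains were higher and 200 lower, including all 8 and 192 of the 365. Leaving out the strains lacking Oma1 and Tcb3, 64 strains past the test are described by name. Of the 64, 41 also passed with the block, and the other 23 had adjusted p between 0.0502 and 0.0597 in that fit. These 23 are Δach1, Δatg12, Δatg32, Δcpt1, Δddi1, Δder1, Δhpm1, Δhse1, Δidh2, Δlsc1, Δopt2, Δpex6, Δpig1, Δpig2, Δrgt2, Δsct1, Δtcb2, Δtos3, Δtrm8, Δtyw1, Δubp2, Δufd2 and ΔYNR064C. Directions hold relative to the common total. After scaling to the median of the labelled barcodes the median difference became 1.68, and 66 of the 365 strains then lay above 0, although all 365 stayed below the median strain and all 8 stayed above it. That scaling left 1 strain higher and 0 lower past the test, and use of the 75th percentile over all probes for scaling 3 higher and 2 lower. Without any single experiment of the empty vector or of the glucose groups no strain passed, and without experiment 1 or 2 of the MDM33 plasmid 246 or 81 were higher and 1516 or 657 lower.

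**Figure D2:**
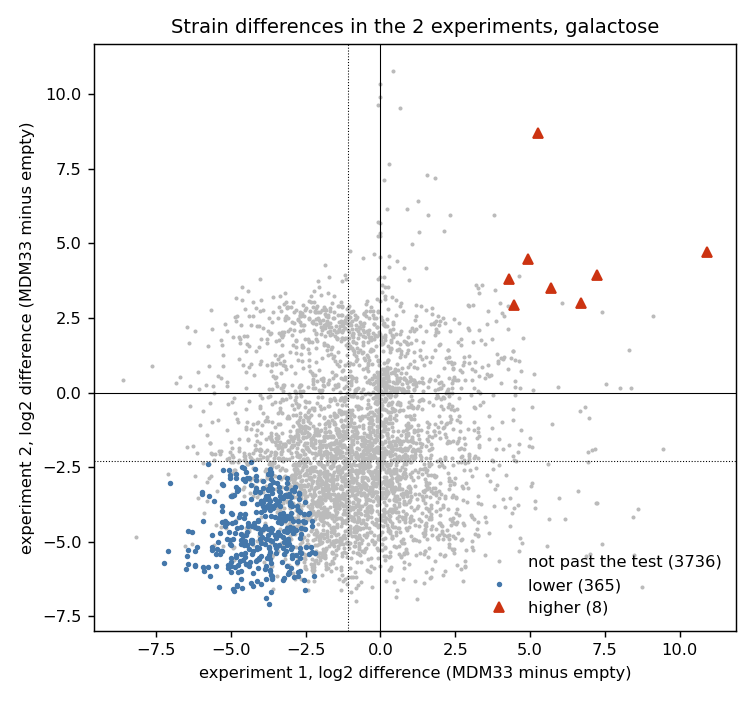
Log2 difference between the MDM33 plasmid and the empty vector on galactose in experiment 1 (horizontal) and experiment 2 (vertical) for 4109 tested strains. Solid lines mark 0 and dotted lines the median of each experiment, -1.07 and -2.30; the 8 higher strains (triangles) lie in the upper right and the 365 lower ones (blue) in the lower left, and most grey points lie below 0 in experiment 2.

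The 8 strains that rose lacked a phosphatase regulator, a DNA polymerase subunit, a tRNA methyltransferase, a prohibitin or genes with little known function. Bud14 targets protein phosphatase 1 to sites of polarised growth and restrains a formin. Δbud14 had 0 and 9338 units with the empty vector in experiments 1 and 2, and 973382 and 254061 units with the MDM33 plasmid (log2 difference 7.81, standard error 1.40, adjusted p = 0.0388 by limma). The plasmid groups did not overlap, and the values came from the uptag alone. On glucose this strain had 0 and 56.6 units with the empty vector and 2465 and 2292 with the MDM33 plasmid, so its values were higher with the MDM33 plasmid on glucose as well, where no strain passed the test.

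Dpb4 is a histone-fold subunit shared by DNA polymerase epsilon and the Isw2 chromatin remodeller. Δdpb4 was below the limit with the empty vector, at 66.8 and 27.6 units, and reached 21419 and 219924 units with the MDM33 plasmid, at least 171-fold higher (adjusted p = 0.0402). It was below the limit in all 4 empty vector samples of both sugars and so entered the test only through the MDM33 samples, which makes this p a description. Its downtag was 209 units in experiment 1 and 194872 in experiment 2, so the downtag was above the limit in experiment 2 only. This strain too was nearly absent on glucose with the empty vector, at 0 and 95.7 units, against 1234 and 14578 units with the MDM33 plasmid. The strains lacking its polymerase partner Dpb3 and its remodelling partners Isw2, Itc1 and Dls1 gave log2 differences of -1.65, -0.31, -0.52 and -1.48 and did not pass the test (adjusted p from 0.534 to 0.914).

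Trm13 methylates the acceptor stem of tRNAs. Δtrm13 had 8594 and 27619 units with the empty vector and 945575 and 224936 with the MDM33 plasmid, a rise of 4.85 (standard error 1.06, adjusted p = 0.0418). Uptag and downtag were higher in both experiments, with mean differences of 5.71 and 4.14. Of the 32 tested strains lacking tRNA modification enzymes this was the only one that rose, and Δtrm8, Δtrm10 and Δtyw1 fell, Δtrm10 with a difference of 0.26 after scaling to the median of the labelled barcodes. Δtrm10 differed between the plasmids on glucose as well (-3.54, against -3.81 on galactose).

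Phb2 forms, with Phb1, the prohibitin ring complex of the inner membrane, which scaffolds proteases and lipids. Δphb2 had 1432 and 2454 units with the empty vector and 37779 and 40888 with the MDM33 plasmid, the closest pair of MDM33 values among the 8 (difference 4.06, standard error 0.81, adjusted p = 0.0405). The downtag carried this change, from 2799 and 4773 to 75557 and 80716 units, while the uptag had 65.1 and 134 units with the empty vector and 0 and 1059 with the MDM33 plasmid. Δphb1, which lacks the partner subunit, had 37921 and 31963 units with the empty vector and 41077 and 12875 with the MDM33 plasmid. Its groups overlapped and its difference of -0.58 did not pass the test (adjusted p = 0.708), although it lay 0.99 above the median strain.

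The other 4 strains that rose lack genes of little known function. ΔYAR047C had the highest values of all 8, with 49282 and 87190 units in the empty vector samples and 2571577 and 986502 in the MDM33 samples (difference 4.59, adjusted p = 0.0388). Δaim33 went from 1884 and 26103 to 363977 and 406525 units (5.60, adjusted p = 0.0414). ΔYHR078W had 31334 and 32660 units with the empty vector, 2 close values, and 695934 and 255321 with the MDM33 plasmid (3.70, adjusted p = 0.0418). Both of its barcodes were higher, with differences of 3.66 and 3.93. Δyhi9 had 5187 and 1627 units against 172483 and 46331 (4.69, adjusted p = 0.0453), all of it from the downtag, while the uptag difference was 0.05. In all, 5 of the 8 strains had both barcodes measured, against 4030 of the 4109 tested strains. Δbud14, ΔYAR047C and Δaim33 have an uptag but no downtag on the array. Of the 5 strains, 3, Δdpb4, Δtrm13 and ΔYHR078W, were higher by both barcodes in both experiments, against 3.62% of the 4030 strains with both barcodes. The 5 strains were called on the mean of the same barcodes in the same samples. A share above that of all strains was thus built in, and these counts are descriptions. For Δdpb4 the downtag was not above the limit in both experiments with the MDM33 plasmid.

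**Figure D3:**
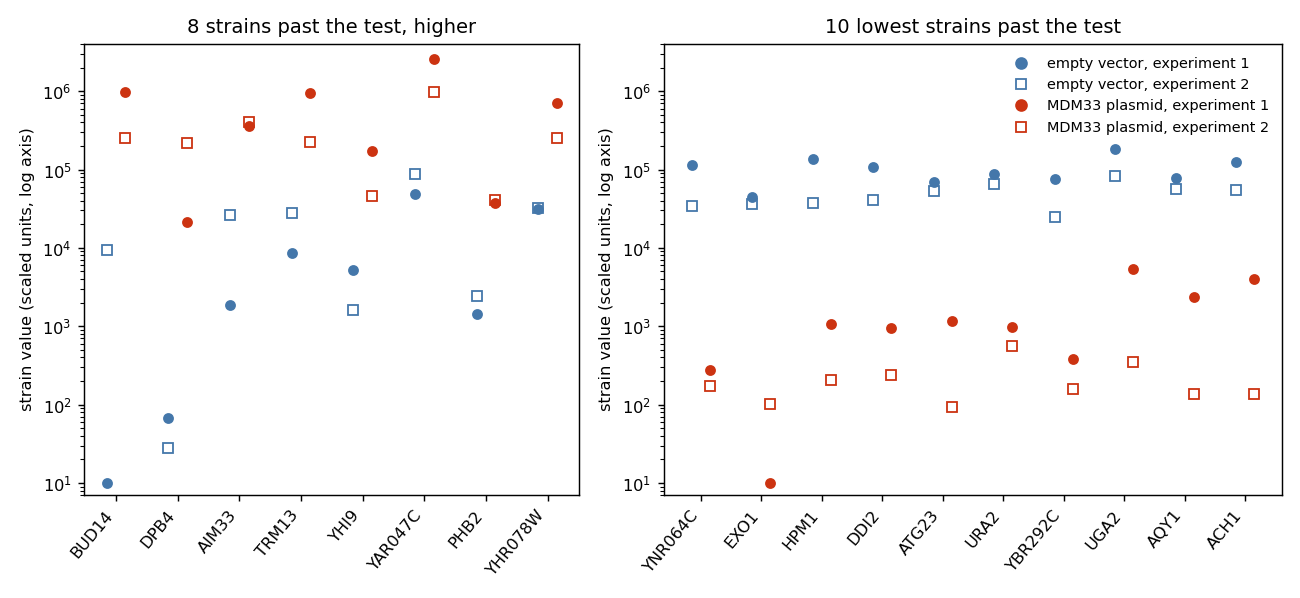
Strain values on galactose in scaled units (log axis) for the 8 strains that rose (left) and the 10 lowest of the strains that fell and were lower by both barcodes in both experiments (right). Blue is the empty vector and red the MDM33 plasmid, filled circles are experiment 1 and open squares experiment 2, and values under 10 units are drawn at 10; in each of the 18 strains both red symbols lie on the same side of both blue ones.

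Strains lacking regulators of the promoter that drives MDM33 lay on opposite sides. Δgal3, which lacks the galactose sensor, had 1887 and 11038 units with the empty vector, where cells must use galactose as their carbon source, and 402345 and 74799 units with the MDM33 plasmid. Its groups did not overlap, and the difference was 5.05 but did not pass the test (standard error 1.43, adjusted p = 0.0598). Δgal4, which lacks the activator, had 4421 and 2832 units against 14414 and 207340, also without overlap (3.78, standard error 1.21, adjusted p = 0.0774). Both of its barcodes were higher in both experiments. Δgal80, which lacks the inhibitor and so expresses GAL genes without the sensor, fell from 217572 and 44425 units to 2290 and 1280, below the limit in both experiments and at least 37.7-fold lower (adjusted p = 0.0402), by the uptag alone. On glucose the differences between the plasmids were -2.28 for Δgal3, -0.06 for Δgal4 and -2.00 for Δgal80. The 6 tested strains lacking galactose uptake or the enzymes of the Leloir pathway, which converts galactose for glycolysis, had a median difference of -0.89 on galactose, and none passed.

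Other strains were higher by both barcodes in both experiments, and most of them did not pass the test. Of 68 such strains detected by each barcode with the MDM33 plasmid, the 10 with the largest differences lacked YDR024W, Dpl1, Tos8, Trm13, Scp160, Cbc2, Gal4, YHR078W, Pau2 and Spt4. Scp160 is an RNA-binding protein of ribosomes at the ER. Δscp160 had 23705 and 65401 units with the empty vector and 1630699 and 523102 with the MDM33 plasmid, a difference of 4.53 that missed the threshold narrowly (standard error 1.16, adjusted p = 0.0504). Spt4 is a transcription elongation factor, and Δspt4 went from 56419 and 31882 to 595679 and 393362 units (3.50, adjusted p = 0.111). The strain deleted for YGR064W, a reading frame that overlaps SPT4 and was chosen after its values were seen, had 44778 and 14283 units against 414100 and 178941 (3.40, adjusted p = 0.0882). These 2 strains remove overlapping DNA and were high in the same samples. Dpl1 breaks down phosphorylated sphingoid bases. Δdpl1 had 94.8 and 3335 units with the empty vector and 188426 and 9759 with the MDM33 plasmid (4.87, adjusted p = 0.0977). The values of Δcbc2 and Δtos8, 427326 and 264112 units in experiment 2 of the MDM33 plasmid against 12910 and 6930 in experiment 1, also differed widely between experiments. On glucose the differences between the plasmids were 2.82 for Δtos8, 2.62 for Δcbc2, 2.06 for Δspt4 and 1.00 for ΔYDR024W. The others of the 10 lay between -2.24 and -0.06 on glucose.

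High values were mostly not shared between experiments. Values over 100000 units were seen for 239 strains in the first and 416 in the second experiment of the MDM33 plasmid, and for 54 in both. With the empty vector 201 and 24 strains exceeded it and 9 did in both. Of the 54, 50 were higher than the empty vector values without overlap, against 5.67% of all tested strains. The 54 were chosen for high values in both MDM33 samples, so a larger share was built in. Of the 54, 5 are among the 8 that rose. With the MDM33 plasmid 601 strains were over 100000 units at least once, and 40 of these were high in the first experiment and below the limit in the second, and another 40 the other way round. Among the 54 was again a pair that removes overlapping DNA, Δpet130 and ΔYJL022W, both chosen after their values were seen. Pet130 is a mitochondrial protein needed for respiratory growth. Δpet130 had 420731 and 118467 units with the MDM33 plasmid against 60778 and 58507, and ΔYJL022W had 767183 and 129280 against 62770 and 68682, with differences of 1.90 and 2.25 that did not pass the test (adjusted p = 0.163 and 0.148).

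Chromosome I gave a pattern that was seen after the values were examined. Of its 88 strains, 71 have an uptag but no downtag on the array. In the galactose samples, 64 of these stayed at or under 2220 units, and the other 7 lay between 254061 and 986502 units in experiment 2 of the MDM33 plasmid. Only Δbud14 and ΔYAR047C were also high in experiment 1. Δswc3 had 0 units with both plasmids in experiment 1, and 29177 with the empty vector against 693816 with the MDM33 plasmid in experiment 2. The strains lacking Gcv3, a subunit of the glycine cleavage system, Erv46, a cargo receptor of ER vesicles, Yat1, a carnitine acetyltransferase, or YAL037W had 492753, 415891, 463319 and 708214 units in experiment 2. In experiment 1 the same 4 strains had 0, 0, 329 and 0 units, and with the empty vector none of their values exceeded 128 units. Both dyes gave the same picture, with 507302 units in Cy5 and 478205 in Cy3 for Δgcv3. On glucose these 4 strains had, in the same order, 7010, 13370, 4944 and 22994 units in experiment 2 of the MDM33 plasmid. Their empty vector values on glucose reached at most 182 units. They entered the test through the MDM33 samples of experiment 2, so their differences of 4.78 to 5.17 (adjusted p from 0.202 to 0.284) are descriptions. High values in strains without a downtag were not confined to chromosome I. On chromosome XIII, Δaim33, ΔYML082W, ΔYML084W and Δusa1 have no downtag and exceeded 100000 units in both MDM33 experiments. Δgal80 and Δubc7 of that chromosome, also without a downtag, fell.

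The 365 strains that fell had differences down to -6.47 with a median of -4.19. Their median with the empty vector was 40461 units, against 24974 over all tested strains. It was 29571 over the 3579 tested strains detected in both experiments with the empty vector, which include all 365. A strain needed signal to lose to be called, so a higher median was built in for the 365. With the MDM33 plasmid 122 of them were below the limit in both experiments, 135 in 1 and 108 in neither, and the 122 were at least 3.07-fold to 39.6-fold lower. On glucose the median difference between plasmids of the 365 was -0.22. Single strains lay further from 0 there, such as Δpex2 at -2.43 and Δatg32 at -1.88. No strain had a difference between the sugars that passed the test of the interaction by limma (smallest adjusted p = 0.242), while 26 with a larger and 715 with a smaller difference on galactose had an unadjusted p under 0.05.

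Of the 362 strains that fell and had both barcodes measured, 279 were lower by both in both experiments, against 33.6% of the 4030 strains. Strains that fell were called on the mean of the same barcodes in the same samples. A share above that of all strains was thus built in, and the counts are descriptions. The downtag moved further, with a median of -5.17 against -3.21 for the uptag. In 76 of the 362 strains the uptag difference lay above -1, and in 56 of these the uptag had been below the limit with the empty vector as well. The downtag difference lay above -1 in 21 strains, 18 of them below the limit with the empty vector.

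**Figure D4:**
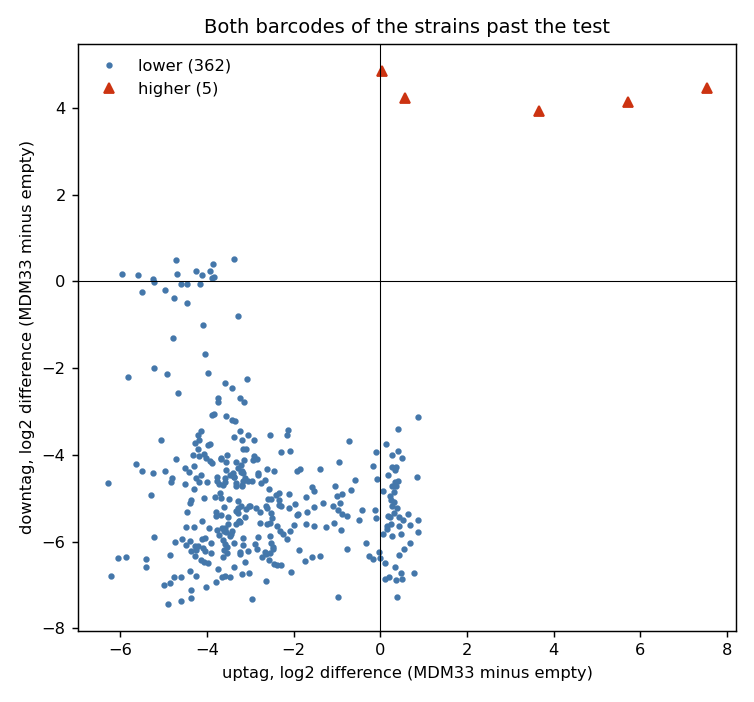
Log2 difference between plasmids on galactose by the uptag (horizontal) and the downtag (vertical) for 362 strains that fell (blue points) and 5 that rose (red triangles) and had both barcodes measured. Most blue points lie below 0 on both axes, with a column near 0 on the uptag axis and a row near 0 on the downtag axis, and 2 triangles lie near 0 on the uptag axis.

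The 10 lowest of the strains that were lower by both barcodes in both experiments lack proteins of different functions. ΔYNR064C, which lacks an epoxide hydrolase, had 115122 and 34617 units with the empty vector and 273 and 173 with the MDM33 plasmid, at least 33.0-fold lower (adjusted p = 0.0467, and 0.0514 with the experiment as a block). Δura2, which lacks the first enzyme of pyrimidine synthesis, went from 86844 and 66233 to 965 and 565 units, at least 39.6-fold lower (adjusted p = 0.0388). Δatg23, which lacks a factor that moves Atg9 vesicles in autophagy, went from 69687 and 53432 to 1161 and 92.7 units, at least 31.9-fold lower (adjusted p = 0.0388). All 4 values of each strain were separated by plasmid, and those with the MDM33 plasmid lay below the limit.

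The next strains of the 10 behaved alike. Δhpm1, without a histidine methyltransferase of ribosomal protein Rpl3, had 136684 and 36949 units with the empty vector and 1076 and 206 with the MDM33 plasmid, at least 37.1-fold lower (adjusted p = 0.0499, and 0.0541 with the block). Δddi2, without a cyanamide hydratase, was at least 34.4-fold lower, ΔYBR292C at least 22.8-fold lower and Δexo1, without a DNA repair exonuclease, at least 21.0-fold lower. The last 3 strains kept a signal above the limit in experiment 1 only. Δach1, lacking a mitochondrial CoA transferase, had 124022 and 55569 units with the empty vector and 3981 and 136 with the MDM33 plasmid (adjusted p = 0.0418, and 0.0502 with the block), Δuga2, lacking succinate semialdehyde dehydrogenase, fell by 5.76 and Δaqy1, lacking a water channel, fell by 5.63. Among these 10, ΔYBR292C and ΔYNR064C also differed between the plasmids on glucose, by -2.88 and -2.82.

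Δaqy1 also opens a run of strains at the right end of chromosome XVI, noticed after the values were seen. Of 6 tested strains in a row by systematic name, Δaqy1, Δopt2, ΔYPR195C, ΔYPR196W and Δsge1 fell, with log2 differences of -5.63, -4.15, -5.02, -4.92 and -4.49, and ΔYPR197C did not pass (-0.87, adjusted p = 0.773). Opt2 is an oligopeptide transporter and Sge1 a drug exporter. Over the genome, 32 of 2866 pairs of tested neighbours both fell, and 12.8% of the neighbours of strains that fell had fallen, against 8.88% of all. The share of strains that fell was 16.1% on chromosome X and 15.6% on chromosome XIV and at most 11.4% on each other chromosome, over strains with a RefSeq match.

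The strains that fell were also counted by the function of the deleted gene, beside 8.88% and a median of -1.57 over all tested strains. Since 3579 tested strains were detected in both experiments with the empty vector and the 365 are all among them, the share within that set, 10.2%, and its median of -1.83 are the closer comparison. Lists are short, and no list was tested as a whole.

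Autophagy genes had 5 of 30 strains fall and none rise (median -1.83). Atg32 and Atg36 are the receptors that mark mitochondria and peroxisomes for degradation. Δatg32 went from 83320 and 27261 units to 1412 and 229, at least 24.9-fold lower, and Δatg36 from 32280 and 16489 to 327 and 580, at least 12.1-fold lower, with an uptag difference of -0.11. Δatg31, without a scaffold protein of autophagosome initiation, kept 2412 and 3524 units and fell by 4.16, and Δatg12, without a ubiquitin-like conjugation factor, fell by 3.75, which became 0.0185 after scaling to the median of the labelled barcodes. The other 25 autophagy strains did not pass. Among them were Δatg10 and Δatg34, named after their values were seen, whose values were higher with the MDM33 plasmid without overlap. Their differences under other processing were small, from 0.10 to 1.36 and from 0.13 to 1.48. Of the 30 strains, 3 were higher in both experiments, and only 1 of these was among the 26 detected in both experiments with the empty vector.

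Shares differed among the lists for protein degradation and sorting, and in 4 of them, for cullin and SCF adaptors (1 of 17), retromer and GARP (0 of 9), HOPS and CORVET (0 of 4) and the V-ATPase (0 of 5), they lay under the background. In ER-associated degradation, which returns misfolded proteins to the proteasome, 3 of 13 fell (median -2.87), those lacking Der1 and Hrd3, of the membrane ligase complex, and the conjugating enzyme Ubc7. Δusa1, which lacks another subunit of that ligase complex and is named after its values were seen, lay on the other side. It had 36798 and 85741 units against 558013 and 208347 without overlap (2.59, adjusted p = 0.0853). Δusa1 and Δubc7 have no downtag on the array. Δhrd3 had 102094 and 59561 units with the empty vector and 6139 and 4175 with the MDM33 plasmid and fell by 3.82, above the limit throughout. Of 13 ESCRT strains, which lack the machinery that sorts proteins into vacuolar vesicles, Δmvb12, Δhse1 and Δdid2 fell, but only 6 of the 13 had been detected with the empty vector in both experiments, and the other members raise the list's median to 0.09 from -3.48 over those 6. Of 18 strains for the proteasome and ubiquitin, Δufd2, Δddi1 and Δubp2 fell (median -2.75). In the COG complex and Golgi, Δcog5, Δcog6 and Δmnn2 were 3 of 14 (median -1.79).

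Regulators of protein phosphatase 1, called Glc7 in yeast, moved in both directions. Δbud14 rose, while Δkel1, which lacks a partner of Bud14 at the bud tip, and Δpig1 and Δpig2, which lack subunits that target Glc7 to glycogen synthase, fell (3 of 12, median -2.48). Δkel1 had 26355 and 24222 units with the empty vector and 429 and 734 with the MDM33 plasmid, by the downtag alone. Δpig2 had 98820 and 37191 units against 7458 and 3505 and was above the limit throughout, but its fall of 3.44 became 0.80 after scaling to the median of the labelled barcodes. Of 14 strains for Snf1 and glucose repression, Δrgt2, Δstd1 and Δtos3 fell, the last of them with a difference of 0.44 after that scaling. Rgt2 is a glucose sensor of the plasma membrane, Std1 acts beside it and binds Snf1, and Tos3 is a kinase that activates Snf1. Δrgt2 went from 90971 and 42712 to 4647 and 5769 units and Δstd1 from 56911 and 58119 to 6182 and 1338. These values were lower in each MDM33 sample than in each empty vector sample.

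**Figure D5:**
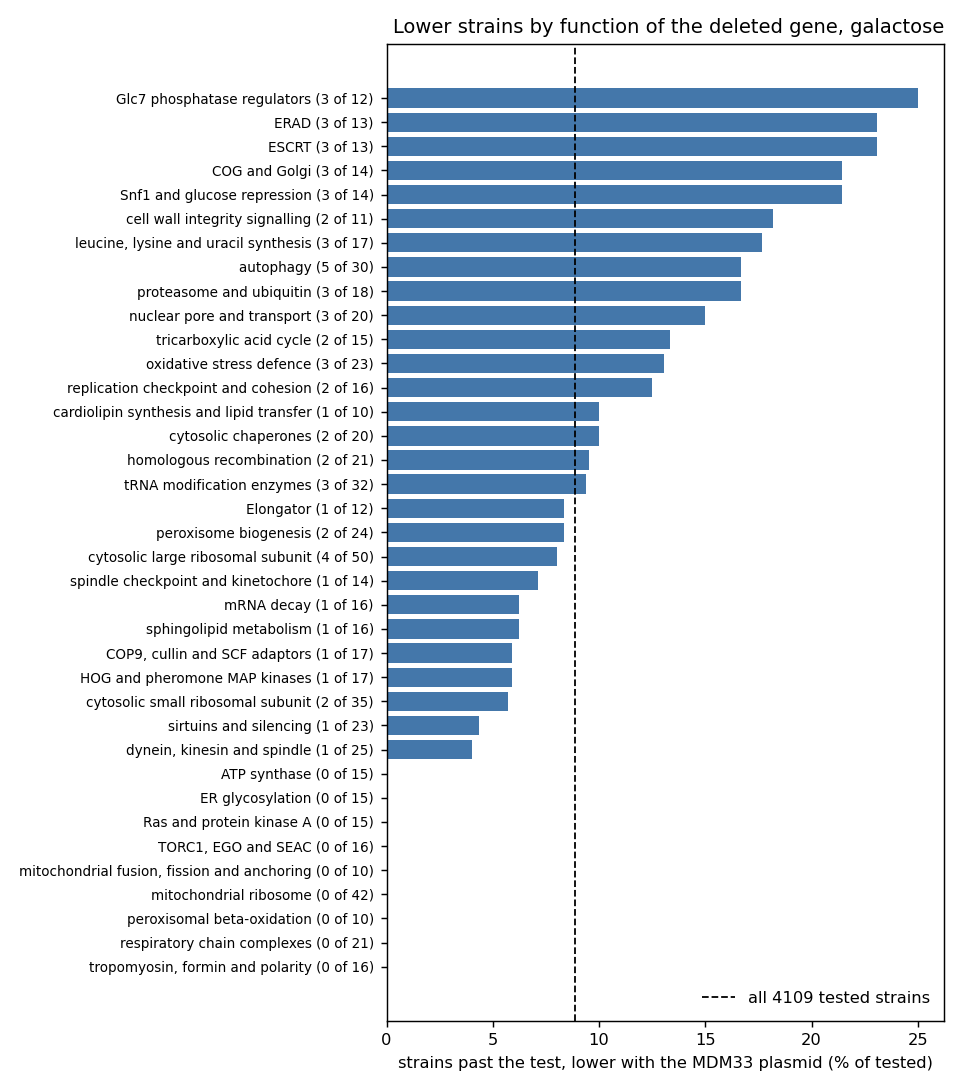
Share of tested strains that fell with the MDM33 plasmid on galactose (horizontal axis, %) for the gene lists with at least 10 tested strains, with the number that fell of the number tested in brackets. The dashed line is the share of all 4109 tested strains, 8.88%; the shares run from 0 to 25.0%, and each bar above the line rests on 1 to 5 strains.

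Few strains of each mitochondrial list fell. The protease Yme1 faces the intermembrane space and Oma1 is a stress-activated protease, and both strains fell among 8 tested for mitochondrial proteases. Δyme1 went from 46160 and 53327 to 3249 and 219 units, a fall of 4.93. In protein import, Δtim21 and Δmdj2 of the inner membrane (2 of 8) and Δtom71 of the outer membrane (1 of 6) fell. Of the MICOS complex, which holds crista junctions, Δmic12 went from 121808 and 38530 to 4777 and 757 units and fell by 4.75, while Δmic60, which lacks the core subunit, had 34772 and 86313 units against 160657 and 86216 and did not pass (1.10, adjusted p = 0.405). Δmic19 had 28393 units in experiment 1 and 367680 in experiment 2 with the MDM33 plasmid, Δmic10 28373 and 407, and neither passed. Δmic26 and Δmic27 were lower without overlap, with differences of -3.11 and -2.80, and did not pass (adjusted p = 0.0878 and 0.0912).

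Among lipid genes, single strains fell as well. Δgep4, which lacks the phosphatase of cardiolipin synthesis, fell from 75603 and 34837 to 49.3 and 385 units, at least 26.8-fold lower, by the downtag alone. Δcpt1, lacking a cholinephosphotransferase, and Δsct1, lacking a glycerol phosphate acyltransferase of the ER, stayed above the limit and fell by 3.34 and by 3.37, the latter with 0.85 after scaling to the median of the labelled barcodes. The tricalbins tether the ER to the plasma membrane, and the strains lacking Tcb2 and Tcb3 were the members of the list for ERMES and mitochondrial morphology that fell. Δtcb2 had 43892 and 40281 units with the empty vector and 3949 and 3059 with the MDM33 plasmid, the most even of these values (fell by 3.42, standard error 0.72, adjusted p = 0.0418, and 0.24 after the same scaling). Δshe9, which lacks MDM33 itself under its RefSeq name, had 2.99 and 3303 units with the empty vector and 79.7 and 209 with the MDM33 plasmid, above the limit in experiment 2 of the empty vector alone, and its difference of -1.11 did not pass (adjusted p = 0.611).

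Other lists had members that fell at shares near the background. Of 24 strains for peroxisome biogenesis Δpex2 and Δpex6 fell (median -2.37), of 23 for oxidative stress defence Δahp1, Δctt1 and Δgrx1, which lack a peroxiredoxin, the cytosolic catalase and a glutaredoxin (median -2.40), and of 15 for the tricarboxylic acid cycle Δidh2 and Δlsc1 (median -1.94). Of 50 strains for the large and 35 for the small cytosolic ribosomal subunit 4 and 2 fell. None of 10 strains for mitochondrial fusion, fission and anchoring passed, with a median of -2.60, and none of 16 for tropomyosin, formin and polarity, where Bud14 acts, with a median of -2.13.

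Several lists held strains with little signal to lose. Of 162 tested strains that were detected in neither experiment with the empty vector, 53.1% had higher values with the MDM33 plasmid without overlap, against 5.67% of all tested strains, and their median difference was 0.41. The median values of these strains were 57.8 units with the empty vector and 105 and 262 units in the MDM33 experiments, all under the limits. Of the 42 tested strains of the mitochondrial ribosome list, 28 were such strains, 5 were detected once and 9 in both experiments with the empty vector, and 17 were higher without overlap. Its median was 0.24, but -1.35 over the 9 detected strains, and none passed. The medians of the ATP synthase (0.12 over 15 strains) and of the respiratory chain (0.26 over 21) also lay above 0. Over the strains detected in both experiments with the empty vector they were 0.32 for 6 strains of the ATP synthase and -0.87 for 14 of the respiratory chain. No member of these 3 lists passed the test.

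The SWR1 complex places the histone variant H2A.Z in chromatin, and its list had a median of 1.67 over 8 tested strains. Of 8 tested strains 6 had been detected with the empty vector in both experiments. These 6 had a median of 0.98, against -1.83 for all strains so detected, while none passed. Δbdf1 and Δswc3 were not so detected and had the largest differences of the list, 2.83 and 2.27. Δswc3 is among the high strains of chromosome I described above. Δswc5 had 12457 and 11921 units with the empty vector and 48459 and 73809 with the MDM33 plasmid, without overlap (2.25, adjusted p = 0.190). Δyaf9 had 213369 and 62809 units against 1370625 and 190710, and Δswr1 80891 and 26715 against 119724 and 52291. Δarp6 and Δvps72 had lower means with the MDM33 plasmid, with differences of -0.68 and -1.15 (adjusted p = 0.719 and 0.546). Δhtz1, which lacks H2A.Z, had 4451 units in experiment 1 and 199726 in experiment 2 with the MDM33 plasmid.

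Strains lacking Fmp30, Pam17, Atp20 or Elp3 were also examined, and none of the 4 passed the test. Fmp30 is an inner membrane protein of phospholipid metabolism, and Δfmp30 had 116851 and 50827 units with the empty vector and 91755 and 11634 with the MDM33 plasmid (-1.21, adjusted p = 0.496). Pam17 belongs to the import motor, and Δpam17 had 354 and 16922 units against 6868 and 56010, higher within each experiment with overlapping groups (2.40, adjusted p = 0.311). Atp20 is subunit g of the ATP synthase. Δatp20 had 3178 and 20261 units against 184575 and 597, so its experiments went in opposite directions (0.71, adjusted p = 0.861). Elp3 is the catalytic subunit of Elongator, and Δelp3 had 170 and 327 units against 128 and 11058 (1.86, adjusted p = 0.359). The differences of these 4 strains lay above that of the median strain by 0.36, 3.98, 2.28 and 3.43. Dim strains have little signal to lose, and the 368 tested strains detected once with the empty vector had a median of -0.44. Δelp3 was one of these, so its distance from the median of all strains overstates a gain.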

How the data were processed

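Genomic DNA of pooled transformants was hybridised to 2-colour Agilent barcode arrays, and 24 dye channels were used, 12 of them from galactose. The authors read spot intensity with ArrayVision, subtracted local background and brought every channel to a common sum of 147680000 units, and the deposited channels sum to between 147379493 and 147666701. The 24 unscaled columns were not used. Of 14767 annotated probes, 26 were not used. A barcode is its originally designed probe, or otherwise the mean of its resequenced probes. Dyes and then barcodes were averaged, which gave 8 values per strain. Names came from RefSeq, and 440 of 5526 strains had no match. The detection limit of a channel is the 99th percentile of the original probes of the barcode type that was not labelled, and strains with a mean ratio to it above 1 were tested. A strain below the limit in both experiments of a group has a bound as its fold, computed from the mean log2 value of the brighter group against, per experiment, the higher of the limit and the strain's own value in the dimmer group.

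Differences were tested with limma 3.58.1 in R 4.3.3 on log2 of the value plus 500 units, two-sided, with 4 group means, 4 degrees of freedom left for the spread, and p-values adjusted by Benjamini-Hochberg over 4109 strains (threshold 0.05). Tables were made with Python 3.11.15, pandas 2.3.3 and numpy 2.4.6 and plotted with matplotlib 3.10.9, and the fit was tested on simulated data. Intensities of an array have no read depth, and the number of arrays limits the precision. Same-numbered experiments of different groups deviated together with correlations of 0.0637 to 0.312 over 6 pairs of groups, which does not show that the numbers pair the samples.

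Strains and gene lists were chosen with earlier results of these data known. Named strains are those that rose, the 10 lowest that fell by each barcode in each experiment, list members that passed, members of lists of up to 8 tested strains, strains lacking PHB1, PHB2, FMP30, ATP20, PAM17, ELP3, GAL3, GAL4, GAL80 or MDM33, and the 10 largest differences among strains higher and detected by each barcode in each experiment. Alternatives changed the added 500 units, scaling, filter, limit, groups fitted, weights, block, barcode, probes, dye and the samples left out. The test of the difference between sugars and the use of the brightest probe were added after the data were seen.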

Additional observations from a re-analysis of the deposited data

How the results depend on the processing

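The direction of the median and the number of strains past the test depended on the scaling and on the estimate of the spread. Against 8 higher and 365 lower strains with a median of -1.57, scaling to the median of the labelled barcodes gave 1 and 0 with a median of 1.68, and the 75th percentile over all probes gave 3 and 2 with a median of -0.84. Under the first of these Δsct1, Δatg12, Δtos3, Δpig2, Δtcb2 and Δtrm10 turned to 0.85, 0.0185, 0.44, 0.80, 0.24 and 0.26. With the MDM33 plasmid on galactose the median of the labelled original probes lay below the detection limit of every channel. Strains without overlap numbered 358 higher and 1061 lower under the 75th percentile and 1196 and 369 under the median, against 233 and 2058. Adding 100 units gave 1 and 71 strains and adding 2000 units 21 and 590, and no filter gave 19 and 667. Array weights and the galactose groups alone gave 0 and 0, with 14 and 28 higher and 729 and 875 lower at an unadjusted p under 0.05. Uptags alone gave 0 and 0 (38 and 1001 unadjusted), 1348 strains detected with the MDM33 plasmid and 146 higher without overlap, downtags alone 4 higher strains, and Cy5 alone in experiment 2 gave 221 lower. The experiment number as a replicate block gave 8 and 200. Leaving out 1 sample at a time gave 0 to 246 higher and 0 to 1516 lower strains, with medians from -1.98 to -1.31. The extremes were without experiment 1 of the MDM33 plasmid and without any one empty vector or glucose sample, and a lone sample was assumed to vary like the other groups. The causes were not tested. With 2 experiments a side and a limit of up to 3339 units with the MDM33 plasmid, differences of dim strains were not resolved.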
